A study of Mus musculus with 4 samples.

Results

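The genes described here are 10 receptors and ligands through which melanocytes and their precursors receive growth and pigment signals: Ednrb, Ednra, Edn1, Edn3, Kit, Kitl, Mc1r, Erbb3, Met and Hgf. They were chosen by name, and all exons of these genes in the deposited exon table were taken, which gave 144 of 226463 exons and 10 of 22835 genes. All 10 genes had exons in the table. The study drove the melanocyte transcription factor Mitf in mouse embryonic fibroblasts (MEFs) and asked how far the fibroblasts moved toward melanocytes.

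The groups used were 3, each a single poly(A) RNA-seq library: wild-type MEFs at passage 3 (WT MEF), Mitf knock-in MEFs at passage 5 with no doxycycline (Dox (-)), and the same kind of cells at passage 5 after 6 days of doxycycline (Dox (+)). Both knock-in groups carry the tetracycline transactivator ROSA26-M2rtTA, the doxycycline-responsive transgene Col1a1-tetO-Mitf, which encodes the melanocyte isoform of Mitf, an mCherry marker and a puromycin resistance cassette. They go back to 1 targeted clone of KH2 embryonic stem cells, and the fibroblasts came from mid-gestation chimeric embryos, which also hold host cells without the transgene. The study describes mCherry and puromycin resistance as the means to purify transgenic cells from such cultures, and how far this was done for these libraries is not given in the sources used here. WT MEF carries none of these alleles, so the step from WT MEF to Dox (-) differs in genotype, origin and passage at once. Primary melanocytes (PMel) were also sequenced and were not analysed here. With 1 library per condition no difference below has a replicate check, no p-value was computed, and the intervals cover the counting error of reads only. In bulk RNA, fewer cells of a type and less RNA per cell cannot be told apart.

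Endothelin receptors A and B are G protein-coupled receptors for the endothelin peptides. EDNRB with its ligand endothelin 3 guides the expansion and spread of melanocyte precursors, and EDNRA is typical of mesenchymal and vascular smooth muscle cells. KIT is a receptor tyrosine kinase that melanoblasts need to survive and migrate, and stem cell factor, encoded by Kitl, is its ligand from keratinocytes, fibroblasts and endothelium. MC1R receives melanocortin and directs the type of pigment made, ERBB3 receives neuregulins and marks the neural crest and its Schwann cell branch, and MET receives hepatocyte growth factor, encoded by Hgf and made by mesenchymal cells.

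Levels are given in RPKM, the reads on an exon per kilobase of exon and per 1000000 aligned reads, and the level of a gene is that of its highest exon. Reads on each exon were worked back from RPKM at depths of 45000000, 45000000 and 44000000 aligned reads in WT MEF, Dox (-) and Dox (+), where 97.2% to 97.4% of values up to 200 reads came out whole within 0.05 reads. Mitf, the induced gene, read 1.52 RPKM in WT MEF, 30.8 in Dox (-) and 1544 in Dox (+), an order that follows the labels. Mitf was already higher in Dox (-) than in WT MEF, 5.57-fold by reads over all its non-overlapping exons (4.91 to 6.33). Summed over 10 melanocyte markers the level was 5.21 RPKM in WT MEF, 13.8 in Dox (-) and 278 in Dox (+). The rise was uneven, with 4 of the 10 above 10 RPKM in Dox (+) and Mlana the highest at 133 RPKM. Between Dox (-) and Dox (+), 8 were higher in Dox (+) and 1 was lower, Sox10, at 6.69 and 1.66 RPKM. All 10 fibroblast markers were above 10 RPKM in Dox (-) and in Dox (+), and 9 of 10 in WT MEF. Their sum was not steady, at 20001 RPKM in WT MEF, 53215 in Dox (-) and 13433 in Dox (+), and 8 of 10 were higher in Dox (-) than in Dox (+). The 8 macrophage markers summed to 50.8 RPKM in WT MEF, 12955 in Dox (-) and 468 in Dox (+), with all 8 higher in Dox (-) than in Dox (+). The Dox (-) library therefore stood apart from the others by its macrophage markers, and what part this plays in the results below was not tested. The values of Dox (+) against WT MEF do not use that library and are given beside the others. All 8 macrophage markers were also higher in Dox (+) than in WT MEF, so this comparison differs in them too. The median gene had 1.20 times as high a level in Dox (+) as in Dox (-), a log2 ratio of 0.27, and 1.24 times as high a level in Dox (+) as in WT MEF. Reads also lay closer to the 5′ end in Dox (+). Of 9304 genes with at least 6 exons and enough reads, 83.2% had a higher Dox (+) over Dox (-) ratio in the 5′ part of their exons than in the 3′ part. For Dox (+) over WT MEF the share was 87.8% of 8899 genes. There the 5′ ratio exceeded the 3′ ratio by 1.36 times in the median gene. This was 1.17 times for Dox (+) over Dox (-) and for Dox (-) over WT MEF. Values of Dox (+) against WT MEF thus avoid the Dox (-) library but carry a larger 5′ shift.

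**Figure D1:**
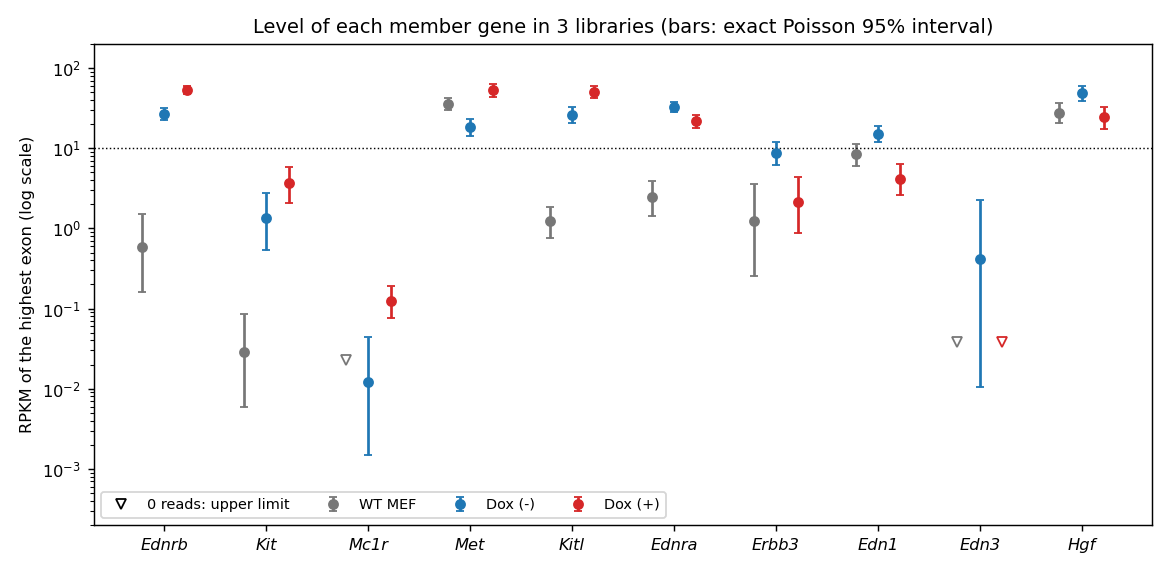
Level of the 10 genes in the 3 libraries, as RPKM of the highest exon on a log axis, with exact Poisson 95% intervals as bars and open triangles as upper limits where no read was found. Ednrb and Kitl step up from WT MEF to Dox (-) to Dox (+). Kit lies above WT MEF in both knock-in libraries, whose intervals for Kit overlap here. Edn1 and Hgf peak in Dox (-), and the dotted line marks 10 RPKM.

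A gene was called different between 2 libraries when it exceeded 10 RPKM in at least 1 of them and differed more than 4-fold on the exon that was highest in either. Between Dox (+) and Dox (-), 0 of the 10 genes were called higher, where 1.92% of 13307 genes tested were, and 0 were called lower, where 5.97% were. At a 2-fold limit, 3 of the 10 were higher (Ednrb, Kitl and Met), against 12.4% of all genes, and 2 were lower (Edn1 and Hgf), against 12.3%. For 3 of these 5 the call ends when reads over all exons are used, since the totals of Ednrb (1.99-fold), Kitl (1.90-fold) and Hgf (1.95-fold lower) fall short of 2-fold. The total of Edn1 was 3.07-fold lower. Its mean over exons, 4.50 RPKM in Dox (-) and 1.47 in Dox (+), is under 10 RPKM, which ends its call too. Only the call of Met stays, at 3.32-fold with a mean of 21.4 RPKM in Dox (+). Kit, Mc1r and Erbb3 had ratios past 4-fold and stayed under 10 RPKM in both libraries. The larger steps for the endothelin receptors and Kitl lay between WT MEF and the knock-in cells. In Dox (-) against WT MEF, Ednrb, Ednra and Kitl were called higher and no member lower, with 9.16% and 1.5% of 13234 genes called in those directions. In Dox (+) against WT MEF, the same 3 genes and Met were called higher and no member lower, with 7.82% and 4.03% of 12941 genes called.

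**Figure D2:**
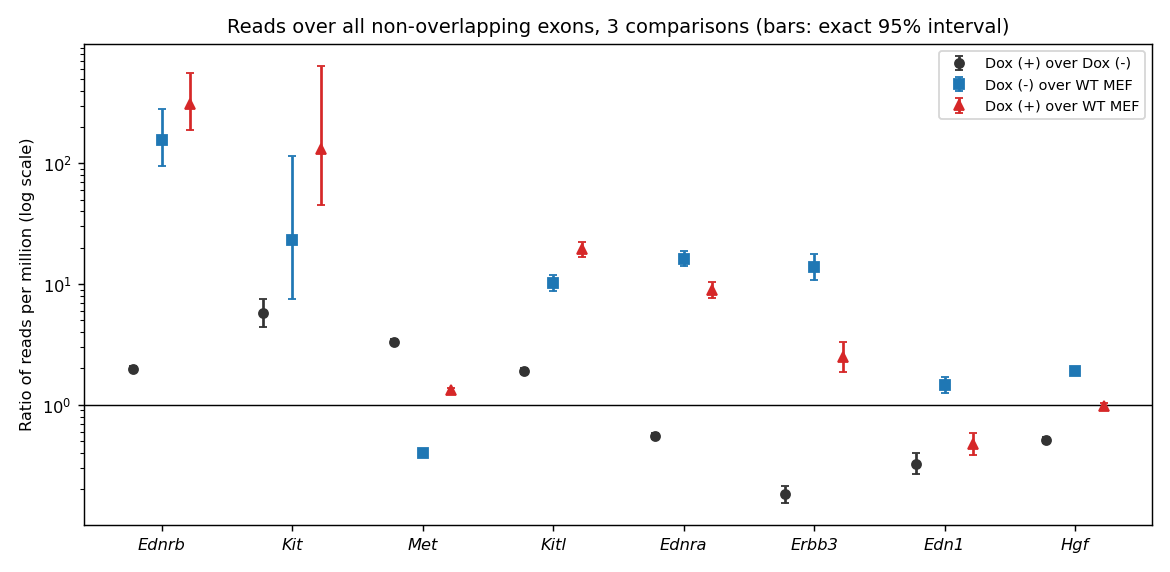
Ratio of reads, scaled by depth, over all non-overlapping exons of 8 member genes, on a log axis, for Dox (+) over Dox (-) (circles), Dox (-) over WT MEF (squares) and Dox (+) over WT MEF (triangles), with exact 95% intervals as bars. Ednrb, Kit, Kitl, Ednra and Erbb3 lie above 1 in both comparisons with WT MEF, and 4 of the 8 lie above 1 and 4 below in Dox (+) over Dox (-). Edn3 and Mc1r have too few reads and are left out.

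The sequences that bear on the exon results below are printed first, from the annotation. The first pair shows exons where KIT and its ligand exist in alternative forms. Exon 6 of Kitl, present in the transcript Kitl-202 and skipped in a shorter form, holds the site at which stem cell factor is cut from the membrane, and is shown whole (GRCm38, chr10:100080857-100080940, plus strand, coding). The end of exon 9 of Kit is shown because a longer and a shorter form differ by the last 12 bases, in capitals, which add 4 residues near the membrane (chr5:75639087-75639158, plus strand, coding).
Kitl exon 6: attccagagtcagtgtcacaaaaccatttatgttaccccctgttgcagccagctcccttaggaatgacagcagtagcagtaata
Kit exon 9, end: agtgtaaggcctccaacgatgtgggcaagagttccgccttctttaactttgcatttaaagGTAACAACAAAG

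The second set concerns promoters, since MITF binds E-box letters such as CATGTG and CACGTG. RefSeq windows of the 250 bases before a transcript start were on hand for 9 of the 10 genes, in 11 windows, Erbb3 being the gene without a match. CATGTG, read on both strands and so also as CACATG, was found in 12.3% of all 32851 windows, and CACGTG, which reads the same on both strands, in 6.02%. Among the members, 3 had either motif: Mc1r with CACATG 62 bases and CATGTG 51 bases before the start, Hgf with CACATG 19 bases before the start in 1 of its 2 windows, and Met with CACGTG 126 bases before the start. The windows of Ednrb, Ednra, Edn1, Edn3, Kit and Kitl held neither. For Ednrb this covers a downstream start only. The bases before its upstream start, that of the transcript Ednrb-201, were not on hand and were not searched. Motifs are in capitals below, Mc1r is on the plus strand at chr8:123406832-123407081, Hgf on the plus strand at chr5:16553245-16553494, and Met is shown by 30 bases on the plus strand at chr6:17463819-17463848, inside exon 1 of the transcript Met-203. The Ednrb window, on the minus strand at chr14:103843702-103843951, is shown because it lies just before a second, downstream start of that gene, described with its reads below. All are GRCm38.p6 from RefSeq, and a match describes letters only.
Mc1r: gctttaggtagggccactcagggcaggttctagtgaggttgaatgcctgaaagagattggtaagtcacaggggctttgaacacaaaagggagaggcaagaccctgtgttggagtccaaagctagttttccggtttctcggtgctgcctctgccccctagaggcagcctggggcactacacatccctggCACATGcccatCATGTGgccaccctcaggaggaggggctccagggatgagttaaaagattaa
Hgf: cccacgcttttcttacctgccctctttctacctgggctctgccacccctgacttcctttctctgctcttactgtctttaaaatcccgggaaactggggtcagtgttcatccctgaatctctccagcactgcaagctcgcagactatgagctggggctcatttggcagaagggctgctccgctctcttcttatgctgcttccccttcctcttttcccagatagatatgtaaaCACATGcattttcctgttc
Met: gggacgaacagaCACGTGctggggcgggta
Ednrb, downstream start: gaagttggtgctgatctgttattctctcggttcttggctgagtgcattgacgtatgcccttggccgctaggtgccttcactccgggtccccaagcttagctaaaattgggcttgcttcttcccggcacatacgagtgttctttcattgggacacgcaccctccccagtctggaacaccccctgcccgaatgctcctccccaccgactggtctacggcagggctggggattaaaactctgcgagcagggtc

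Of the endothelin genes, Ednrb showed the widest span. Its highest exon read 0.593 RPKM in WT MEF, 26.7 in Dox (-) and 53.5 in Dox (+), and the 3 Poisson intervals did not overlap. Over 8 non-overlapping exons the gene collected 15, 2351 and 4583 reads. The step from WT MEF to Dox (-) was 157-fold (95% interval 94.8 to 280), and the step from Dox (-) to Dox (+) was 1.99-fold (1.90 to 2.10), or 1.66-fold relative to the median gene. Dox (+) exceeded WT MEF 312-fold (189 to 559). Most of the span thus lay between WT MEF and knock-in cells that had not been given doxycycline, in which Mitf was already above WT MEF. The part of Mitf in this step was not tested. All 8 exons of the transcript Ednrb-201 were higher in Dox (+) than in Dox (-).

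The ratio was uneven along Ednrb. Exon 1 of Ednrb-201, a noncoding exon of 276 bases upstream of the coding exons (chr14:103844127-103844402, minus strand), held 0 reads in WT MEF, 29 in Dox (-) and 282 in Dox (+), a 9.82-fold difference between the last pair (6.77 to 15.1). Exon 2, which carries the translation start, had 185 and 580 reads and was 3.21-fold higher in Dox (+) (2.71 to 3.80). Exons 3 to 8 were 1.67- to 2.16-fold higher. The upstream exon therefore stood at 0.313 of the RPKM of exon 2 in Dox (-) and at 0.958 of it in Dox (+). Transcripts Ednrb-202 and Ednrb-203 begin instead with a longer form of exon 2, from the start that follows the window printed above. The 159 bases that belong to this longer form alone held 0, 13 and 51 reads, a 4.01-fold difference between Dox (+) and Dox (-) (2.15 to 8.04), and its interval overlapped that of the upstream exon. Because reads lay closer to the 5′ end in Dox (+) across the library, the same measure was taken for every gene with enough reads. Exon 1 exceeded the other exons in its Dox (+) over Dox (-) ratio by 1.26 times in the median gene and by 5.28 times in Ednrb, and 30 of 5858 genes (0.512%) were as high as Ednrb or higher. This is a description, since Ednrb was singled out after its exons were seen.

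**Figure D3:**
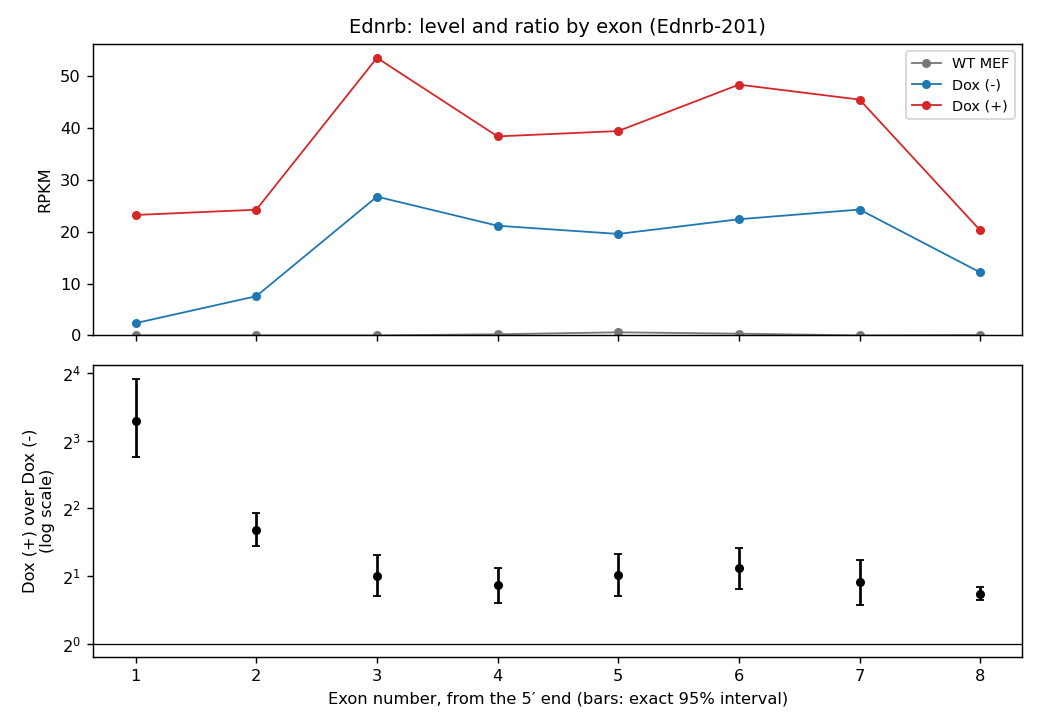
Ednrb by exon of Ednrb-201, numbered from the 5′ end: RPKM in the 3 libraries (top) and the ratio of Dox (+) to Dox (-) on a log axis with exact 95% intervals (bottom). Exon 1 has the highest ratio, 9.82, exon 2 has 3.21, and exons 3 to 8 lie between 1.67 and 2.16.

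Ednra, the other endothelin receptor, had its highest level in Dox (-). Its highest exon read 2.47 RPKM in WT MEF, 32.6 in Dox (-) and 21.8 in Dox (+). Over 8 exons it had 192, 3113 and 1668 reads, so that Dox (-) exceeded WT MEF 16.2-fold (14.0 to 18.9) and Dox (+) stood at 0.548 of Dox (-) (0.516 to 0.582). Dox (+) exceeded WT MEF 8.88-fold (7.65 to 10.4). All 8 exons were lower in Dox (+), at 0.474 to 0.705 of Dox (-), which is under the 4-fold limit, and the total was 0.455 of Dox (-) relative to the median gene. The fibroblast markers, summed above, also had their highest level in Dox (-), while the 8 smooth muscle markers summed to 20171 RPKM in WT MEF, 21998 in Dox (-) and 50335 in Dox (+), with 4 higher and 4 lower in Dox (+) than in Dox (-). The part of either in the Ednra values was not tested. An Ednra exon overlaps 4933431K23Rik on the opposite strand, and whether the counting used strand is not given in the sources used here. The 2 receptors moved in opposite directions between Dox (-) and Dox (+). By mean RPKM over exons, which is per length, the level of Ednrb was 0.0664 of that of Ednra in WT MEF, 0.642 in Dox (-) and 2.33 times that of Ednra in Dox (+).

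The endothelin ligands were sparse. Edn1, endothelin 1, which endothelium and several other cells release, read 8.38 RPKM in WT MEF, 15.0 in Dox (-) and 4.19 in Dox (+) on its highest exon, exon 4 in all 3. It had 298, 433 and 138 reads in total, and Dox (+) stood at 0.326 of Dox (-) (0.267 to 0.396), or 0.271 relative to the median gene, with all 5 exons lower. Against WT MEF it stood at 0.474 in Dox (+) (0.384 to 0.581). One exon of Edn1 overlaps the antisense gene Gm47118. The 8 endothelial markers summed to 55.5 RPKM in WT MEF, 54.4 in Dox (-) and 10.4 in Dox (+), all 8 higher in Dox (-) than in Dox (+), with Erg the highest at 45.7, 27.2 and 2.39 RPKM, and their part in the Edn1 values was not tested. Edn3, the ligand that acts on EDNRB in melanocyte development, had 5 reads in Dox (-), on 3 of its exons, and 0 in WT MEF and Dox (+). At this depth no difference of Edn3 between libraries was detectable, and the first 2 exons of its transcript were not in the table. The receptor Ednrb was thus at its highest level in a library with 0 reads on Edn3 and the fewest reads on Edn1.

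Kit was low and had the same order as Ednrb. Its highest exon read 0.0289 RPKM in WT MEF, 1.35 in Dox (-) and 3.64 in Dox (+), so it stayed below 10 RPKM throughout and could not be called. In all, Kit had 3, 69 and 387 reads over 21 non-overlapping exons. Dox (+) exceeded Dox (-) 5.74-fold (4.43 to 7.52), or 4.76-fold relative to the median gene, and exceeded WT MEF 132-fold, with a wide interval of 44.8 to 643 because WT MEF had 3 reads. Of 20 exons above 3 reads in either library all 20 had the higher level in Dox (+), and the interval lay above 1 in 15 of them. The remaining exon, exon 1, had 0 reads in all 3 libraries. Exons in the 3′ part differed more than those in the 5′ part, 7.08-fold against 4.09-fold, the opposite of most genes in these libraries. The extra 12 bases of exon 9, printed above in capitals, could not be followed: the longer and the shorter form were listed with the same reads, 0 in WT MEF, 2 in Dox (-) and 18 in Dox (+). Melanocytes and mast cells both depend on KIT. Of the mast cell markers 7 of 8 were in the table, and they summed to 25.1 RPKM in WT MEF, 18 in Dox (-) and 22.9 in Dox (+), most of it from Gata2. Cpa3 read 0, 0.977 and 0.25 RPKM, Cma1 0, 0.697 and 0.167, and Tpsb2 0, 0 and 4.85. Of 10 melanocyte markers 8 had the higher level in Dox (+) of the knock-in libraries, led by Mlana at 0.585, 0.39 and 133 RPKM, and the part of either cell type in the Kit values was not tested.

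Kitl, the ligand of KIT, was well above its receptor. Its highest exon read 1.22 RPKM in WT MEF, 26.1 in Dox (-) and 50.1 in Dox (+), values close to those of Ednrb in both knock-in libraries. Over 10 exons it had 208, 2123 and 3950 reads. Dox (-) exceeded WT MEF 10.2-fold (8.85 to 11.8), and Dox (+) exceeded Dox (-) 1.90-fold (1.80 to 2.01), with all 10 exons of Kitl-202 higher. The call of Kitl in Dox (-) against WT MEF rests on the 10 RPKM limit: its mean over exons in Dox (-) was 8.35 RPKM, which ends the call, while the ratio of totals stayed at 10.2. The ratio of Dox (+) to WT MEF was 19.4 (16.9 to 22.4). It was 63.6-fold in the 5′ part of the exons, with 12 reads there in WT MEF, and 16.7-fold in the 3′ part. A contrast as high was found in 2.21% of 8899 genes. Dox (-) over WT MEF was 24.1-fold and 9.36-fold in these parts, with 2.99% of 9058 genes as high. Between Dox (+) and Dox (-), exon 3 gave 3.31-fold (2.33 to 4.77) and exon 9 gave 1.49-fold (1.12 to 1.99). That ratio was thus also larger toward the 5′ end. Relative to the median gene the total difference between Dox (+) and Dox (-) was 1.58-fold. Exon 6, the cleavage site exon printed above, had 4, 75 and 131 reads. Its RPKM was 1.18 times the mean of its neighbours in WT MEF, 1.32 times in Dox (-) and 1.18 times in Dox (+). The exon was thus covered like its neighbours in each library, and a shift toward the form without it was not detectable. By mean RPKM the level of Kitl was 28.6 times that of Kit in Dox (-) and 9.49 times in Dox (+).

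**Figure D4:**
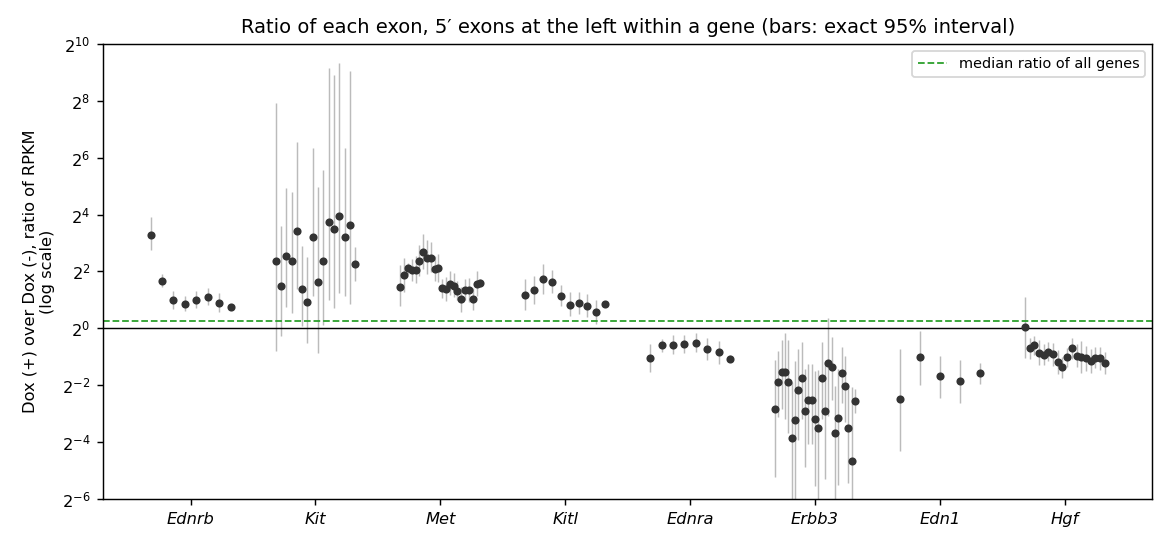
Ratio of Dox (+) to Dox (-) for each exon of 8 members on a log axis, exons in 5′ to 3′ order within a gene and exact 95% intervals as bars, for exons with reads in both libraries and more than 3 in either. Exons of Ednrb, Kit, Met and Kitl lie above 1, those of Ednra, Erbb3 and Edn1 below 1, and Hgf has 1 exon at 1.02 and the others below 1. The dashed line is the median ratio of all genes, 1.20.

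Mc1r has a single exon of 3638 bases, which held 0 reads in WT MEF, 2 in Dox (-) and 20 in Dox (+). These are 0, 0.0121 and 0.124 RPKM, the lowest level in Dox (+) of the members with any read there. The 2 knock-in libraries differed 10.2-fold (2.48 to 90.2). With WT MEF set to 3 reads, Dox (+) was 6.82-fold higher than WT MEF, and the exact interval with its 0 reads starts at 5.05. The exon overlaps the antisense gene Gm38092, so reads of either could be counted. Of the MC1R list, 9 of 10 genes were in the table, and 0 of 3 tested were called in any comparison, too few to read against the shares of 1.5% to 9.16% of all genes called.

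Erbb3 had the steepest decline in level from Dox (-) to Dox (+) among the members with more than a few reads. Its highest exon read 1.23 RPKM in WT MEF, 8.62 in Dox (-) and 2.15 in Dox (+), below 10 RPKM in each. Over 28 exons it had 75, 1030 and 182 reads. Dox (-) exceeded WT MEF 13.7-fold (10.9 to 17.6), and Dox (+) stood at 0.181 of Dox (-) (0.154 to 0.212), a 5.53-fold difference, or at 0.15 relative to the median gene. Over all exons Dox (+) was still 2.48-fold above WT MEF (1.89 to 3.29), but unevenly. The ratio was 9.79-fold in the 5′ part of its exons, with 7 reads there in WT MEF, and 1.73-fold in the 3′ part. A contrast between the parts as high as this was found in 0.921% of 8899 genes. The ratio of Dox (-) to WT MEF was uneven too, 50.3-fold in the 5′ part and 9.97-fold in the 3′ part. A contrast as high as that was found in 0.949% of 9058 genes. For Dox (+) over Dox (-) the 5′ ratio exceeded the 3′ ratio by 1.12 times only. All 28 exons were lower in Dox (+), and in 27 of them the interval lay below 1. In WT MEF 40 of the 75 reads lay on the last exon, where Dox (+) over WT MEF was 1.38 (0.900 to 2.13), an interval that includes 1. Markers of Schwann and glial cells, a cell type that uses ERBB3, followed the same order. They summed to 18.3 RPKM in WT MEF, 265 in Dox (-) and 42.6 in Dox (+), and 7 of 8 were higher in Dox (-) than in Dox (+), with Fabp7 the highest at 1.96, 144 and 24.3. Sox10, a neural crest factor shared by melanocytes and glia, read 0.0514, 6.69 and 1.66 RPKM, and Foxd3 read 0, 0.993 and 0.0192. Whether these cells account for the Erbb3 values was not tested.

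Met was the only member with more reads in WT MEF than in Dox (-). Its highest exon read 35.7 RPKM in WT MEF, 18.4 in Dox (-) and 52.9 in Dox (+), and the gene had 5055, 2008 and 6527 reads over 22 exons. Dox (-) stood at 0.397 of WT MEF (0.377 to 0.418), and 20 of 22 exons were lower in Dox (-). The exceptions were exon 1, 3.00-fold higher in Dox (-) (1.30 to 7.72), and exon 2, with an interval that includes 1. Dox (+) exceeded Dox (-) 3.32-fold (3.16 to 3.5), or 2.76-fold relative to the median gene. All 22 exons were higher in Dox (+) than in Dox (-), each with its interval above 1. Against WT MEF the total was 1.32-fold (1.27 to 1.37), or 1.06-fold relative to the median gene. The call of Met in that comparison rested on exon 2, a noncoding exon of 49 bases, at 10.9 RPKM in WT MEF and 52.9 in Dox (+), a 4.86-fold difference (3.11 to 7.89). It was lost above an 8-fold limit and when the mean or median over exons, the highest exon of each library, the last exons alone or rescaled libraries were used. Dox (+) over WT MEF was 2.23-fold in the 5′ part of the exons of Met and 0.994-fold in the 3′ part. The call thus lies on the side where most genes had the higher ratio in this comparison.

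Along Met the ratio of Dox (+) to Dox (-) stepped down after exon 11. Exons 3 to 11 together were 4.56-fold higher (4.18 to 4.98), and exons 12 to 20 were 2.52-fold higher (2.31 to 2.75), a split chosen after the values were seen. In WT MEF and Dox (-) the first set stood at 0.545 and 0.524 of the RPKM of the second, and in Dox (+) at 0.948. The difference is in the direction of most genes in these libraries: split at the middle exon, the 5′ ratio exceeded the 3′ ratio by 1.61 times in Met and by 1.17 times in the median gene, and 7.25% of 9304 genes were as high as Met. Kitl at 1.48 and Ednrb at 1.59 by this measure were near Met. The motif of the Met promoter printed above lies in exon 1, which had 8, 24 and 65 reads. In Dox (-) over WT MEF the ratio of exon 1 exceeded that of the other exons by 7.63 times. As high or higher were 0.452% of 5314 genes. In Dox (+) over WT MEF it was 6.35 times, with 1.65% of 5463 genes as high, and in Dox (+) over Dox (-) 0.832 times. A marked contrast of exon 1 was thus not particular to Ednrb.

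**Figure D5:**
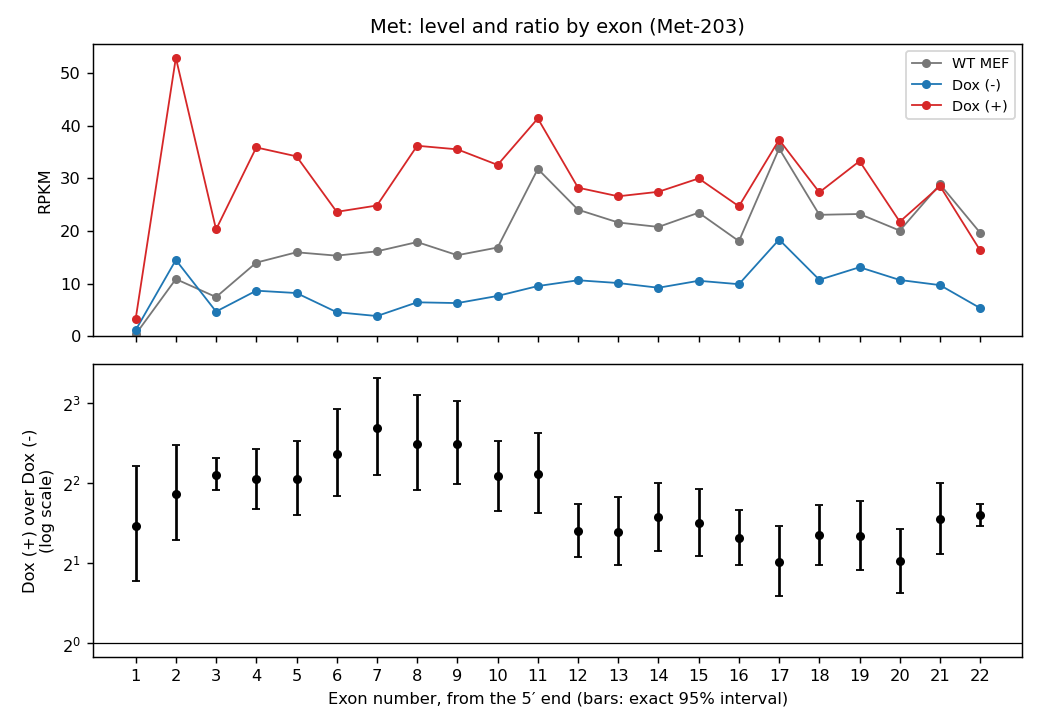
Met by exon of Met-203, numbered from the 5′ end: RPKM in the 3 libraries (top) and the ratio of Dox (+) to Dox (-) on a log axis with exact 95% intervals (bottom). Dox (-) has the lowest RPKM from exon 3 on, and the ratio is 4.13 to 6.43 in exons 3 to 11 and 2.03 to 2.97 in exons 12 to 20.

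Hgf, the ligand of MET, went the opposite way to its receptor. Its highest exon, exon 13, read 27.9 RPKM in WT MEF, 49.0 in Dox (-) and 24.5 in Dox (+), and the gene had 1722, 3251 and 1634 reads. Dox (-) exceeded WT MEF 1.89-fold (1.78 to 2.0), and Dox (+) stood at 0.514 of Dox (-) (0.484 to 0.546), or 0.427 relative to the median gene. The fibroblast markers had the same order in Dox (-) and Dox (+), with the sums given above, and their part in the Hgf values was not tested. Of 19 non-overlapping exons 18 were lower in Dox (+) than in Dox (-). The exception was the noncoding exon 1, with 17 reads in each. Dox (+) stood at 0.970 of WT MEF (0.906 to 1.04), an interval that includes 1, and at 0.781 of it relative to the median gene. By mean RPKM the level of Met was 1.11 times that of Hgf in WT MEF, 0.234 in Dox (-) and 1.51 times in Dox (+).

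The other genes of these pathways were taken from 6 lists of 68 genes that include the members, of which 64 were in the table. Between Dox (+) and Dox (-), 3 of 44 tested were called higher, where 1.92% of all genes were, and 1 lower, where 5.97% were, and the median log2 difference was 0.35, beside 0.26 over all genes tested. Ecel1, a metalloprotease of the endothelin-converting enzyme family, read 0.673 RPKM in WT MEF, 0.956 in Dox (-) and 30.4 in Dox (+). The others called higher were ligands of the EGF receptor family, to which ERBB3 belongs: Btc, betacellulin, at 1.65, 1.23 and 13.5 RPKM, and Areg, amphiregulin, at 2.09, 5.10 and 40.5 RPKM. The gene called lower was Csf1r, the macrophage growth factor receptor, at 8.10, 342 and 11 RPKM, which is also one of the macrophage markers above. The converting enzyme Ece1, at 102, 357 and 307 RPKM, was not called in any of the 3 comparisons.

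Against WT MEF, 11 of 43 list genes tested were called higher in Dox (+) and 0 lower, beside 7.82% and 4.03% of all genes, with a median log2 difference of 1.05 beside 0.32 over all genes. In Dox (-) 8 of 41 were called higher and 0 lower, beside 9.16% and 1.5% of all genes, with a median of 0.79 beside 0.02. Those called higher in Dox (+) and not members were Ecel1, Btc, Areg, Ereg, Plau, Ngfr and Fgf2. In Dox (-) they were Lyn, Pdgfra, Csf1r, Ngfr and Fgf2. Ngfr, the low-affinity nerve growth factor receptor of neural crest cells, read 0.123 RPKM in WT MEF, 25.8 in Dox (-) and 12 in Dox (+). Plau, urokinase, a protease that can activate the HGF precursor, read 202, 435 and 1053 RPKM. These comparisons share the WT MEF library, so their counts are not independent of each other.

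The genes nearest to each member were sought by distance of log2(RPKM + 1) over the 3 libraries, which describes level and order in 3 points only. Nearest to Ednrb was Kitl, at a distance of 0.492, then Ccl8 at 0.596 and Hspb7 at 0.703. Ccl8, a chemokine, read 0.198 RPKM in WT MEF, 25.4 in Dox (-) and 72.2 in Dox (+), and Hspb7, a small heat shock protein, read 0.279, 17.4 and 62.1. For Kitl the nearest was Foxs1 at 0.463, for Ednra Htr1b at 0.326, for Edn1 Naalad2 at 0.0682, for Met Slc25a33 at 0.293 and for Hgf Zkscan6 at 0.107. Kit, Mc1r, Erbb3 and Edn3 did not reach 10 RPKM, and no such genes are named for them.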

How the data were processed

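The authors made poly(A) libraries with the TruSeq RNA kit v2, mapped reads to mm10 with TopHat 2.0.10, took bedtools counts for every Ensembl exon, and deposited them as RPKM, scaled by exon length and aligned reads. In the deposited file, columns were matched to the 3 libraries by name. There was 1 further column whose name fitted none of them, and it was not used. The values of WT MEF differ from those listed for MEFs in the study's supplement, so they describe the deposited column only.

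GENCODE M21 (GRCm38) gave the gene of each exon; 6586 of 234718 identifiers had no match. Exons of protein coding genes, pseudogenes and lincRNAs were kept. Reads were recovered as RPKM times exon length times a depth, searched between 20 and 80 in units of 1000000 reads as the value that made most reads whole. With no replicates no test was run. Calls required over 10 RPKM and over 4-fold on 1 common exon, the lower library set to at least 3 reads, and log2 differences used a pseudocount of 1. Ratio intervals are exact binomial (Clopper-Pearson) and level intervals exact Poisson, at 95%. Totals used non-overlapping exons, longest first. The members, Mitf, list genes called, the 3 nearest genes of Ednrb, the nearest 1 of the others and the highest marker of a list are named by rule; Cpa3, Cma1, Tpsb2, Sox10, Foxd3 and Ece1 were chosen after their values were seen. Members and lists were chosen with earlier results of these data known. Calls and intervals were also run on simulated Poisson reads. These held no spread between cultures and no 5′ shift, so the run does not bear on either. Python 3.11.15, pandas 2.3.3, NumPy 2.4.6, SciPy 1.17.1 and matplotlib 3.10.9 were used.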

Additional observations from a re-analysis of the deposited data

How the results depend on the processing

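Alternatives were another expression limit, another fold limit, another pseudocount, the mean or median over exons, and libraries rescaled by their median ratio. The highest exon of each library and the last exons only were added after seeing the data. In Dox (+) against Dox (-), 0 members were called. The count was 2 at 1 RPKM (Kit and Erbb3), 3 with no expression limit (Mc1r as well), 5 above 2-fold, and 1 after rescaling (Edn1). Dox (-) against WT MEF had 3 calls, 1 at 30 RPKM (Ednra), and 2 to 4 otherwise, with Kitl lost under the mean over exons and the last exons only, where its level fell under 10 RPKM with log2 differences of 2.36 and 2.32. Dox (+) against WT MEF had 4 calls, and 3 to 6 under the alternatives. Of 210 single-gene values 198 were counted as unmoved and 11 moved more than their counting error. Where a library had 0 reads on the common exon, that error had no limit, so such values could not be counted as moved. Among them, with a pseudocount of 0.1, Kit in Dox (+) against Dox (-) went from a log2 difference of 2.21 to 5.22. Ednrb in Dox (+) against WT MEF went from 5.77 to 9.07. The 198 therefore do not measure stability for such genes. Met against WT MEF reversed, to a log2 difference of -0.0089 in Dox (+) with the last exons only, and the cause was not tested. Hgf against WT MEF, close to 0, changed sign under the median over exons and the last exons, at 0.013 and 0.0028 on the log2 scale. Comparisons with PMel were not run. No paired analysis was possible because each group had 1 library. Leaving out a replicate was not possible for the same reason. Depth limits Edn3, Mc1r and Kit, and the spread between cultures is unknown.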
